A study of Mus musculus with 18 samples.

Results

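RAD21 binding was compared between resting B cells and cells after 96 h of stimulation, using the 3 replicate peak lists of each time point. These are 6 of the 18 samples of the series, of which 9 are RAD21 ChIP-seq replicates with a peak list and the others are input libraries. Peaks of the 6 lists that shared at least 1 bp were merged, which gave 10278 binding sites. A site was called gained when all 3 replicates at 96 h and no resting replicate had a peak there, and lost when at least 2 resting replicates and no replicate at 96 h had one. Of the 10278 sites, 601 were gained and 91 were lost, and 356 had a peak in all 6 replicates.

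The cells were splenic B cells of C57BL/6 mice aged 8 to 10 weeks, and each replicate pooled the cells of 12 mice. Resting cells received no stimulus. The others were cultured with 50 µg/ml LPS, a bacterial activator of B cells, and 2 ng/ml IL-4, a cytokine, which together induce the switch to IgG1. Cells harvested at 96 h were additionally enriched for IgG1-positive cells by depleting the rest. The stimulus, the time in culture and the purification therefore cannot be told apart. Expression was not measured in these libraries, so the identity of the cells could not be checked against marker genes.

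RAD21 is the subunit that closes the ring of cohesin, the complex that holds sister chromatids together and shapes chromatin loops. On mammalian chromosomes cohesin moves along DNA and accumulates where it meets CTCF, a zinc finger protein that binds a long, well-defined DNA motif in a preferred direction. In B cells, cohesin and CTCF are known for bringing distant parts of the immunoglobulin loci together during recombination, and for connecting enhancers with promoters.

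Sequences from selected gained and lost sites are shown because they reveal how closely bound DNA can resemble this motif. Each run is 30 bases, read 5′ to 3′ from the mm9 reference genome, with the best-scoring 20 bases of the site in capitals. The score compares the 20 bases with a motif learned from sites with a peak in all 6 replicates, whose most frequent base at each position reads CTGGCGCCCCCTAGTGGCCA, and sequences that reach 10.23 log2 odds count as a match. The first 5 sequences are from gained sites, named by the nearest gene. All 5 hold a match, with scores of 20.96 log2 odds for Hjurp, 20.02 for Mink1, 18.42 for Msh6, 22.30 for Fas and 21.40 for Plcg2.
Hjurp, chr1:90184328-90184357, plus strand: gagttCTTGTGCCCTCTTGTGGCCTccatg
Mink1, chr11:70418872-70418901, plus strand: ggcacTTGGTGCCCCCTGTTGGCCAaaggt
Msh6, chr17:88348486-88348515, plus strand: ggcgaAGGCTGACCCCTGGTGGCTGcacgg
Fas, chr19:34408970-34408999, minus strand: gagaaACAGTGCCATCTTGTGGCCGtgtgg
Plcg2, chr8:119995287-119995316, plus strand: gggctCGGCTGCCCCCTGCTGGTTGctcct

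The lost sites nearest to Nup62, Slc28a3 and Bach2 held matches, with scores of 20.96, 20.25 and 18.57 log2 odds. The lost sites nearest to Sub1 and Cdk8 scored 6.41 and 1.79 log2 odds and held none. The printed sites are not typical of their class. Over all lost sites the median best score was 14.5 log2 odds, and over all gained sites it was 18.2.
Nup62, chr7:52080443-52080472, plus strand: ttgtcATAGCACCACCTGGTGGCCGttgac
Slc28a3, chr13:58691032-58691061, plus strand: gccttCTGATGCCCCCTGCTGGCAGcacct
Bach2, chr4:32240512-32240541, minus strand: atggaGCACTGCCCTCTACTGGAGAtactt
Sub1, chr15:11967264-11967293, plus strand: gaggaACACTGCCCCCTGGCTTACTcgggt
Cdk8, chr5:147072649-147072678, plus strand: ggctgGTCGCGGCCCCCGGCGCGCCgggct

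The number of peaks was 2097, 821 and 3578 in resting replicates 1 to 3 and 2807, 4552 and 8579 in the replicates at 96 h. The ranges of the time points overlapped, and lists of 1 time point differed several-fold in length. The score of the peak caller had medians of 11.6, 9.99 and 10.72 in resting cells and 10.19, 11.96 and 12.52 at 96 h. Since a longer list offers more sites, the numbers of gained and lost sites and their promoter and motif shares are given both with whole lists and with each list limited to its 821 highest-scoring peaks, the length of the shortest list. Values that name no list length are from whole lists. Read counts are not part of the lists, so a site without a peak is a site not called, and not one shown to be free of RAD21. Intervals given below are exact binomial 95% intervals and cover counting error only.

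With whole lists, gained sites outnumbered lost ones under either demand on the replicates. The 601 gained sites are 5.85% of all sites, and the 91 lost sites are 0.885%. When 2 of 3 replicates were asked at 96 h, 2150 sites were gained, 20.9% of all sites. When all 3 resting replicates were asked, 9 sites were lost, 0.0876% of all sites. Just outside the definition of a gained site lay 1549 sites with a peak in 2 replicates at 96 h and no resting one, and 393 sites with a peak in all 3 replicates at 96 h and in 1 resting replicate. Just outside that of a lost site lay 715 sites with a peak in 1 resting replicate only and 231 sites with a peak in 2 resting replicates and 1 replicate at 96 h.

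With lists of equal length this excess was not seen. The 6 limited lists held 2431 sites, of which 226 (9.3%) had a peak in at least 2 replicates at 96 h and no resting replicate, and 228 (9.38%) showed the opposite pattern. Where all 3 replicates were asked, 58 sites were gained (2.39%) and 46 were lost (1.89%), beside 58 sites in all 6 limited lists. The limited sets shared only part of their sites with the whole-list ones, and least of all for lost sites. Of the 58 sites gained at equal length, 28 (48.3%) had no resting peak in the whole lists either, and of the 228 lost at equal length, 14 (6.14%) had no peak at 96 h in the whole lists. These 28 and 14 sites meet both definitions and are called the retained gained and retained lost sites.

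**Figure D1:**
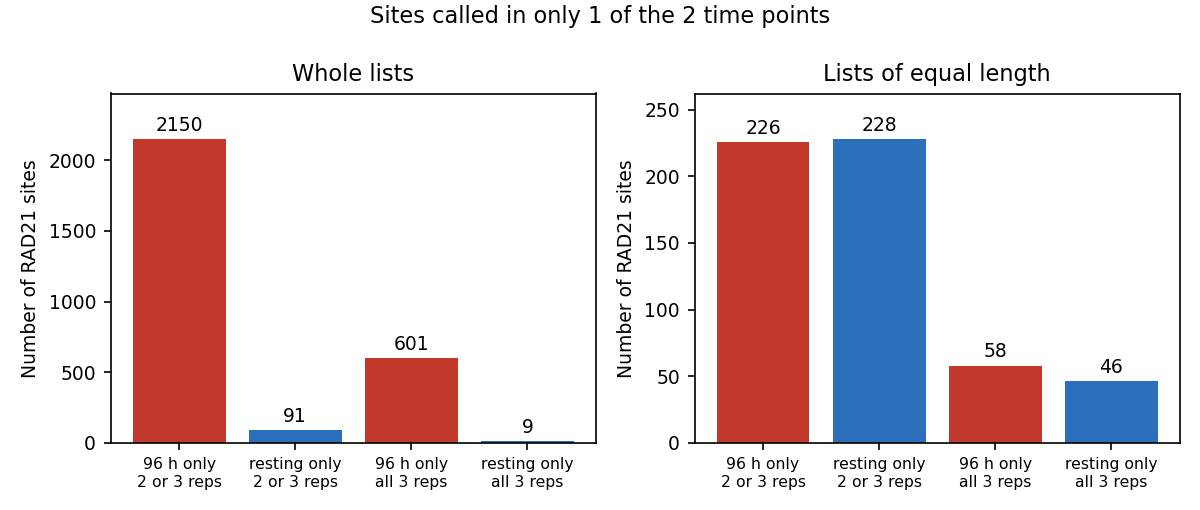
Number of RAD21 sites (vertical axis) with a peak in at least 2, or in all 3, replicates of 1 time point and in none of the other, in red for 96 h and in blue for resting cells, with whole lists on the left and with each list limited to 821 peaks on the right. Where at least 2 replicates were asked, 2150 sites at 96 h stand beside 91 in resting cells with whole lists, and 226 beside 228 with lists of equal length.

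The counts also varied with the replicates included. Most lost sites, 66 of 91 (72.5%), rested on resting replicates 1 and 3, while 9 had a peak in all 3 resting replicates, 13 in replicates 2 and 3 and 3 in replicates 1 and 2. Without the longest list, 96 h replicate 3, the lost sites numbered 326. When a replicate of the group with the peaks was left out, both remaining replicates were asked to have one, so that the demand changed together with the lists. Lost sites then numbered 12 and 22 without resting replicate 3 or 1, and gained sites 1760 and 935 without 96 h replicate 1 or 2.

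The lists called by the authors from the merged reads of each time point were also compared. They come from the same reads as the replicate lists, so they are not independent of the choice of sites. All 601 gained sites had a peak in the merged list of 96 h, and all 91 lost sites in that of resting cells. In the merged resting list, 199 gained sites (33.1%, 29.4% to 37.0%) also had a peak, and 56 lost sites (61.5%, 50.8% to 71.6%) had one in the merged list of 96 h. Over all 10278 sites these shares were 48.8% and 92.1%. Thus 402 gained and 35 lost sites had no peak in either the replicates or the merged list of the other time point.

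The 48 h replicates were not used in choosing the sites and show how many were called at the time between. A peak in at least 1 replicate at 48 h was present at 202 of the 601 gained sites (33.6%, 29.8% to 37.5%) and at 33 of the 91 lost sites (36.3%, 26.4% to 47.0%). Sites with a peak in all 6 replicates had one in 300 of 356 cases (84.3%), and all 10278 sites in 24.4%. Replicate 2 of the 48 h cells stood apart, since it had 5254 peaks with a median width of 65 bp and covered 49 of the 356 sites, against 246 and 241 for replicates 1 and 3 with 1538 and 1563 peaks. Without it the shares were 32.4% of gained and 28.6% of lost sites. Of the retained gained sites, 20 of 28 (71.4%, 51.3% to 86.8%) had a peak at 48 h, and of the retained lost sites, 6 of 14 (42.9%, 17.7% to 71.1%). Without replicate 2 these were 20 of 28 and 4 of 14 (28.6%, 8.39% to 58.1%). The intervals of retained gained and retained lost sites overlap with and without it.

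Gained sites were spread over most of the score range at 96 h, and the medians of lost sites in resting cells were lower. To compare lists, each score was turned into its percentile within its own list, where 100 is the highest. The 601 gained sites had median percentiles of 50.4, 58.8 and 74.1 in the replicates at 96 h, and the lost sites 40.1, 32.4 and 50.1 in the resting replicates, over the 78, 25 and 88 sites with a peak there. Sites in all 6 replicates had higher medians, of 80.1, 65.6 and 87.2 in resting cells and 77.8, 81.8 and 92.7 at 96 h. The order of these classes cannot be read as a difference in binding, because the demands on the replicates differed. A gained site needed a peak in every replicate at 96 h, whereas a lost site could lack one in a resting replicate. A percentile also depends on how many weak peaks its list holds, and the lists differed in length. Scores took part in choosing the retained sites, so their percentiles are given as a description.

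The highest-ranked gained sites lay near genes of many functions. The site nearest to Hjurp, which encodes the chaperone that loads the centromeric histone CENP-A, was at chr1:90184165-90184466, with its centre at -10108 bp from the start (negative positions are upstream). Its percentiles were 97.7, 99.4 and 97.9 in the replicates at 96 h, with a peak at percentile 95.4 in 48 h replicate 1 and none in resting cells. All 3 sites nearest to Hjurp were gained, within chr1:90174157-90186796. The site at its promoter, -67 bp from the start, was uneven, at percentiles 94.4, 18.2 and 11.5, and the third, at chr1:90186624-90186796, was low in all, at 34.3, 23.0 and 10.4. Cdk18, which encodes a cyclin-dependent kinase, was the only other gene nearest to 3 gained sites, out of 4 sites in all. They spanned chr1:134013310-134052645 and had median percentiles of 74.5, 64.0 and 59.4, none of them being retained at equal length.

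A pair of gained sites near promoters ranked high. The site at chr11:94347361-94347696, -867 bp from the start of Spata20, had percentiles of 99.98, 96.1 and 99.2 at 96 h. That at chr5:3893883-3894195, -106 bp from the start of Mterf, which encodes a mitochondrial transcription termination factor, had 85.9, 97.0 and 94.9. The Spata20 site held no motif match, with a best score of 5.00 log2 odds, whereas the Mterf site scored 17.70. Of the 12 retained gained sites with the highest median percentiles, the one near Chmp6, a subunit of the membrane-cutting ESCRT-III complex, was the only other without a match.

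Several of these sites lay in introns. Within Mink1, a serine/threonine kinase gene, the gained site at chr11:70418732-70419016 had percentiles of 94.8, 98.6 and 96.7 at 96 h. In Tbcd, which encodes a tubulin folding cofactor, the site at chr11:121337061-121337371 had 88.9, 95.8 and 99.0. Both had a peak in 48 h replicate 1, at percentiles 85.3 and 93.6. Others were in introns of Xrra1 and of the cadherin gene Cdh23, and between genes near Rab6b, which encodes a GTPase of Golgi traffic, near Tmem17, which encodes a membrane protein of the cilium, and near Igfbp5, which encodes an insulin-like growth factor binding protein. Of the 10 gained sites with the highest median percentiles, those in introns of the kinesin gene Kif3c and of Clic5 and the one near Larp1 were not retained at equal length. The Kif3c site, at chr12:3390922-3391221, had percentiles of 98.3, 69.3 and 99.3 at 96 h.

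Among the further retained gained sites were those nearest to Fas and Msh6. Fas encodes a death receptor that removes activated lymphocytes, and its site at chr19:34408874-34409136, 43856 bp downstream of the start, had percentiles of 93.2, 85.4 and 94.6 at 96 h. Msh6 encodes a mismatch repair protein with a role in class switching, and its site at chr17:88348301-88348647, at -25916 bp, had 85.2, 88.3 and 94.9. Both had peaks in 48 h replicates 1 and 3 as well, and both had a peak in the merged resting list. Fas was named after its values had been seen.

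The 9 sites called in all 3 resting replicates and in none at 96 h were mostly within genes. That with the most even ranks lay in an intron of Il4i1, a gene that encodes an amino acid oxidase and is named for its induction by IL-4. It is closest to the start of Nup62, a nuclear pore gene, at chr7:52080316-52080541. Its percentiles were 64.4, 65.6 and 75.7 in the resting replicates. None of the 48 h replicates had a peak there, but the merged list of 96 h did. In an intron of Cdk8, which encodes a kinase of the Mediator complex, the site at chr5:147072505-147072879 had percentiles of 75.2, 56.8 and 82.8. It was the only 1 of the 9 without a motif match and had a peak at percentile 93.7 in 48 h replicate 2, the replicate that stood apart.

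The other 7 were more uneven. The site in an intron of Elmo1, whose product activates the GTPase Rac, had percentiles of 81.1, 1.46 and 71.7 in resting cells. The site at chr13:58690915-58691132 in an intron of Slc28a3, a nucleoside transporter gene, had 26.8, 32.4 and 90.8. The others lay in introns of Katnal1, Wdr35 and Otud7a, at -2480 bp from the start of the protease gene Capn1, and near 3930402G23Rik. Of the 9 sites, 8 had a peak in the merged list of 96 h, the exception being Cdk8.

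**Figure D2:**
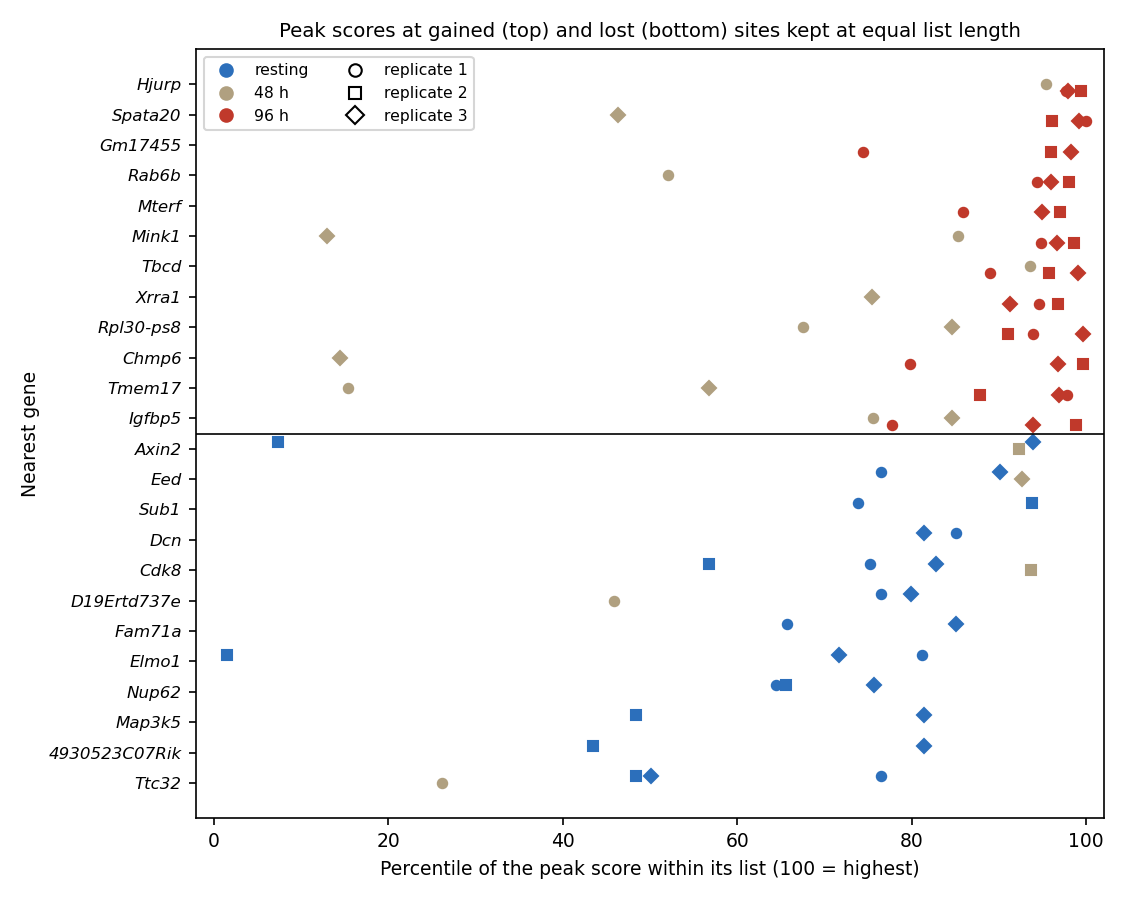
Percentile of the peak score within its list (horizontal axis, 100 the highest) at the 12 retained gained sites (top) and the 12 retained lost sites (bottom) with the highest median percentiles, named by the nearest gene. Colours mark the time point and shapes the replicate, and a missing symbol means no peak. The gained sites lie above 70 in each replicate at 96 h, while the lost sites range from 1.46 at Elmo1 to 93.9 at Axin2 in resting cells.

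Other retained lost sites had a peak in a pair of resting replicates. The site nearest to Sub1, which encodes a transcriptional coactivator, was at chr15:11967139-11967366 and had percentiles of 73.8 and 93.8 in resting replicates 1 and 2. It had no peak in any list of 48 h or 96 h. The site near Eed, which encodes a subunit of Polycomb repressive complex 2, was at chr7:97165059-97165358 with percentiles of 76.5 and 90.1 in resting replicates 1 and 3, and 92.7 in 48 h replicate 3. The site at chr11:108872900-108873377 near Axin2, an inhibitor of Wnt signalling, had 7.37 and 93.9 in resting replicates 2 and 3. Like the sites of Sub1, Cdk8, Fam71a and Map3k5, the Axin2 site held no motif match. Of the 10 lost sites with the highest median percentiles, those in introns of Tbc1d1, Bckdhb and Fam105b were not retained at equal length, and all 3 held a match. Retained lost sites near Dcn, which encodes decorin, and D19Ertd737e and in an intron of Tnr held a match too.

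Gene groups of B cell biology were compared by the genes nearest to the sites, and each count is a description without a test. Of 22232 protein-coding genes, 7090 were nearest to at least 1 site, 582 (8.21% of the 7090) to a gained site and 91 (1.28%) to a lost site. A gene with many sites around it can more easily be nearest to a site of any class, and these shares do not allow for this. Of 28 genes of B cell identity, 19 (67.9%) were nearest to a site, beside 31.9% of all 22232 genes. To a site in all 6 replicates, 5 of the 28 (17.9%) were nearest, beside 1.57% of all genes. None of the 19 with a site was nearest to a gained one, and 3 (15.8%) were nearest to a lost one. These 3 were Bach2, a repressor that restrains plasma cell differentiation, Bcl11a, a zinc finger factor needed for lymphoid development, and Mef2c, a transcription factor used in B cell proliferation.

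The lost sites at these 3 genes were far from the starts and of middle rank. The Bach2 site, at chr4:32240410-32240639, was at -85254 bp and had percentiles of 26.8 and 72.9 in resting replicates 1 and 3. A further lost site lay in an intron of Bach2, at chr4:32335321-32335496, with percentiles of 41.3 and 54.7, but was closer to the start of D130062J21Rik. The Bcl11a site was 119119 bp downstream of the start, with a median percentile of 32.8. The Mef2c site, at chr13:83204999-83205288, was at -437889 bp, with percentiles of 61.7 and 24.7 in resting replicates 1 and 3. Mef2c alone of the 3 had no peak in the merged list of 96 h, and none of the 3 sites was retained at equal length.

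Of 26 genes of signalling from the B cell receptor, 22 were nearest to a site, 3 (13.6%) to a gained and 0 to a lost one, beside 8.21% and 1.28% over all genes with a site. To a site in all 6 replicates, 5 of the 26 (19.2%) were nearest, beside 1.57% of all genes. The 3 genes nearest to a gained site were Plcg2, the phospholipase that follows receptor activation, Itpr2, a calcium release channel, and the adaptor gene Grb2. Their gained sites had median percentiles of 86.7, 81.3 and 71.9 at 96 h. All 3 sites had a peak in the merged resting list, and none was retained at equal length.

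The remaining groups held few gained or lost sites and are small, so that their counts are to be read against the 8.21% and 1.28% over all genes with a site. Of the genes nearest to any site, gained sites were nearest to 1 of 14 genes of the LPS and NF-kB response (Cd180, a TLR4-related receptor of B cells), 1 of 12 of the IL-4 response (the phosphatase gene Ptpn1), 1 of 5 of class switching and break repair (Msh6) and 1 of 17 of homing and adhesion (Selplg, the ligand of P-selectin). None of these 4 groups had a lost site. Cd180 and Ptpn1 were also nearest to a site with a peak in all 6 replicates, at chr13:103468653-103468946 and chr2:167720579-167721059. Of the 582 genes nearest to a gained site, 15 were nearest to such a site as well. Plasma cell and secretion genes, 18 in number, had 1 gained site in an intron of Zbtb20, a zinc finger factor of plasma cell survival, and 1 lost site nearest to Hspa5, the chaperone BiP of the endoplasmic reticulum. That site lay in an intron of Rabepk.

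Beside the same shares over all genes, no gene was nearest to a gained or lost site among the 7 of cohesin and CTCF, the 16 of the cell cycle and replication, the 11 of antigen presentation and the 7 of myeloid cells. Among 14 T cell genes with a site, 3 (21.4%) were nearest to a gained site, namely Bcl11b, Cd5 and Thy1, and 0 to a lost one, beside 8.21% and 1.28% over all genes with a site. Bcl11b, a T cell lineage factor, carried its site in an intron, and that site had no peak in the merged resting list, whereas those of Cd5 and Thy1 had one. Presence of T cells in the cultures was not tested, since a RAD21 peak does not measure expression.

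Genes nearest to both kinds of site were few. Of the 582 and 91 genes, 4 were shared, namely Plek, Jmjd1c, Abt1 and A2ld1. Plek encodes pleckstrin, a protein kinase C substrate, and its lost site lay in its own intron at chr11:16913064-16913261. Jmjd1c encodes a JmjC-domain protein of chromatin, and its gained site, at -288334 bp, chr10:66270417-66270669, was retained at equal length.

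The position of sites relative to genes was compared next. Gained sites were less often at promoters, defined as the 3 kb before the start of a protein-coding transcript, with 35 of 601 (5.82%, 4.09% to 8.01%), beside 10.6% (9.99% to 11.2%) of all sites. Lost sites were at promoters in 13 of 91 cases (14.3%, 7.83% to 23.2%) and sites in all 6 replicates in 51 of 356 (14.3%, 10.9% to 18.4%). At equal length the shares were 12.1% (4.99% to 23.3%) of 58 gained and 12.3% (8.32% to 17.3%) of 228 lost sites, and their intervals overlap. Introns held 36.4% of gained and 38.5% of lost sites, close to the 37.3% of all sites. Gained sites lay a median of 20069 bp from the nearest start, lost sites 23336 bp and all sites 17896 bp. In 3′UTRs there were 14 gained sites (2.33%) and 0 lost ones, with an interval up to 3.97% for the latter, beside 2.03% of all sites.

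Taking the replicate as the unit, the share of all peaks at promoters was 12.6%, 13.3% and 12.7% in resting replicates 1 to 3 and 10.0%, 10.4% and 10.4% at 96 h. No replicate at 96 h reached a resting one. The means were 12.9% ± 0.366 and 10.3% ± 0.219 (SD, n = 3 each), a difference of -2.60 percentage points with p = 0.1 in a two-sided exact permutation test, the smallest p that 3 against 3 replicates allow. With lists of equal length the shares were 12.2%, 13.3% and 12.9% against 11.0%, 11.6% and 12.3%, which overlap. The difference was then -1.18 percentage points (exact permutation p = 0.2).

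**Figure D3:**
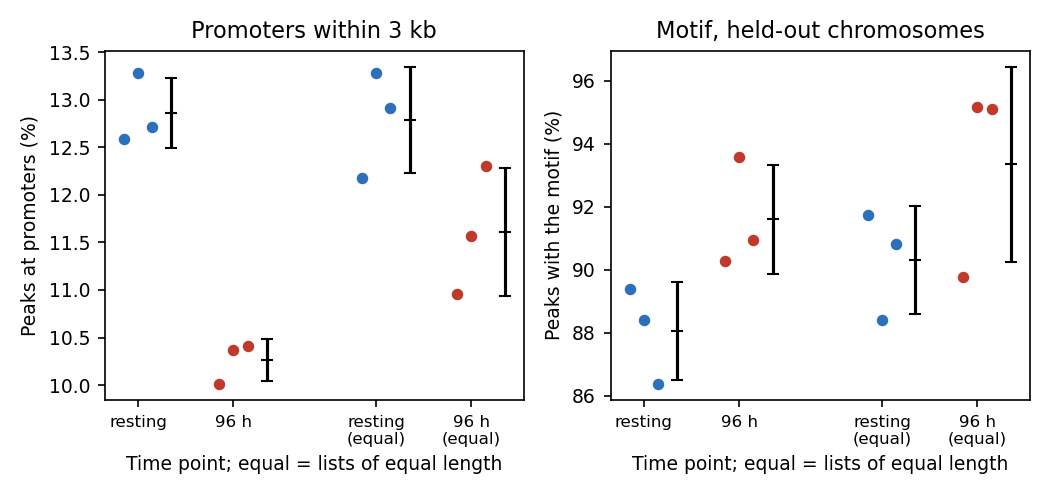
Share of the peaks of each replicate at promoters within 3 kb (left, percent) and with a motif match on held-out chromosomes (right, percent), for resting cells in blue and 96 h in red, with whole lists and with lists of equal length. Dots are replicates, and bars are the mean ± SD of 3; the vertical axes do not start at 0. Promoter shares of the time points are apart with whole lists, at 12.9% and 10.3%, and overlap at equal length.

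The CTCF-like motif was then measured on the 11 chromosomes that had not been used to learn it. It was found at 251 of 261 gained sites (96.2%, 93.1% to 98.1%), and at 22 of 34 lost sites (64.7%, 46.5% to 80.3%). Sites in all 6 replicates held it in 152 of 169 cases (89.9%, 84.4% to 94.0%), all sites in 88.6%, and windows 1000 bp away from the sites in 4.70%. The intervals of gained and lost sites did not overlap. They are intervals over sites, which are not replicates, and the demands on the replicates differed between these classes. Sites with a peak in a single resting replicate and nowhere else held the motif in 67.2%, similar to the lost sites, whereas those with a peak in a single replicate at 96 h held it in 88.6%.

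At equal length, the motif shares of lost and gained sites lay close together, with overlapping intervals. It was found at 83 of 89 lost sites (93.3%, 85.9% to 97.5%) and at 21 of 23 gained sites (91.3%, 72.0% to 98.9%). However, only 14 of the 228 sites lost at equal length had no peak at 96 h in the whole lists. Over all chromosomes, the retained lost sites held a match in 9 of 14 cases (64.3%, 35.1% to 87.2%). The retained gained sites held one in 24 of 28 (85.7%, 67.3% to 96.0%), and these intervals overlap. Over all chromosomes, lost sites with a peak in the merged list of 96 h had a match in 42 of 56 cases (75.0%) and those without one in 21 of 35 (60.0%). The median GC content was 49% at lost sites, as at all sites, and 51.5% at gained sites. Tandem repeats of at least 20 bases were found at 6.59% (2.46% to 13.8%) of lost, 2.50% (1.40% to 4.08%) of gained and 4.11% of all sites, and the intervals of lost and gained sites overlap. How GC content and repeats bear on the motif share was not tested.

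**Figure D4:**
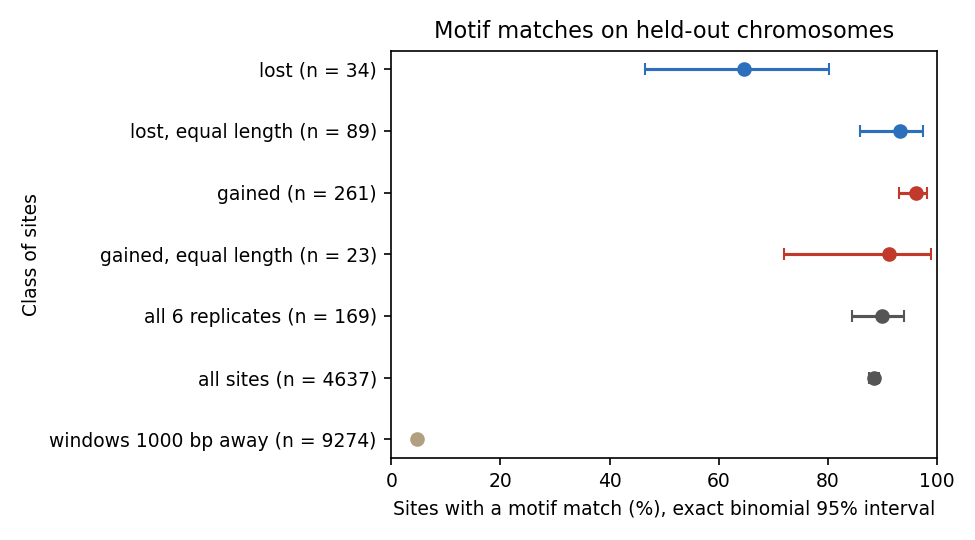
Share of sites with a motif match (horizontal axis, percent) on the 11 chromosomes not used to learn the motif, with exact binomial 95% intervals, for lost sites in blue, gained sites in red, sites in all 6 replicates and all sites in grey and windows 1000 bp away in tan. Lost sites with whole lists stand at 64.7%, apart from the other classes of sites, which lie between 88.6% and 96.2%.

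Per replicate, the share of peaks with the motif was 89.4%, 88.4% and 86.4% in resting cells and 90.3%, 93.6% and 91.0% at 96 h. All replicates at 96 h were above all resting ones. The means were 88.1% ± 1.54 and 91.6% ± 1.73 (SD, n = 3 each), with p = 0.1 in the exact permutation test, again its smallest value. With lists of equal length the means were 90.3% ± 1.72 and 93.3% ± 3.09 with overlapping replicates (exact permutation p = 0.3). Adjusted over the tests of promoter and motif shares by Benjamini-Hochberg, the exact permutation p with whole lists remained 0.1 for each.

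The CpG of the motif was found in similar shares of gained and lost sites. The bases at positions 5 and 6 of the motif, counted from its 5′ end, were CG in 204 of 565 gained sites with a match (36.1%, 32.1% to 40.2%), in 22 of 63 lost sites (34.9%, 23.3% to 48.0%) and in 32.4% of all sites. The intervals overlap. DNA methylation at this CpG was not measured in these samples.

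Finally, the 356 sites with a peak in all 6 replicates allowed a test of rank. At each site, ranks of the scores among the 356 were turned into normal scores and compared between the time points with limma. At an adjusted p of 0.05, 0 sites (0%) ranked higher and 0 (0%) lower at 96 h, the smallest adjusted p being 0.250 in limma. At an unadjusted p of 0.05, 26 were higher and 18 lower. The median difference was -0.04 with an SD of 0.80 over sites, and the median standard error of a single site was 0.62. At 29 sites (8.15%) every replicate at 96 h ranked above every resting one, and at 27 (7.58%) below. Correlations of the normal scores ranged from 0.262 to 0.470 within time points and from 0.197 to 0.300 between them, over the same 356 sites and therefore as a description only.

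The largest differences are given as values, since none passed the test. Where rank 1 is the highest score of 356, the promoter site at -37 bp from the start of Irak2, a kinase of Toll-like and interleukin-1 receptor signalling, ranked 306.5, 184 and 103 in resting cells and 49.5, 5 and 11 at 96 h. The groups did not overlap, and the difference in normal scores was 1.92 ± 0.62 (SE), with an adjusted p of 0.289 in limma. The site near Bahd1, which encodes a heterochromatin protein, ranked 283.5, 355 and 274.5 against 37, 215 and 37.5, a difference of 2.15. Sites near Arhgap23 and Cdc42bpg differed by 2.01 and 1.89.

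In the other direction, the site in an intron of Fut8, the fucosyltransferase of the N-glycan core, ranked 145.5, 96.5 and 119.5 in resting cells and 334.5, 350 and 325 at 96 h. Its resting ranks were close to each other and all above those at 96 h, with a difference of -2.09 ± 0.59 (SE) and an adjusted p of 0.250 in limma. The site near Zcchc2 ranked 16.5, 18.5 and 49.5 against 302, 285 and 200, a difference of -2.15. At Pik3cd, which encodes the PI3-kinase subunit of leukocytes, the ranks were 8.5, 184 and 32 against 354, 97 and 283, which overlap, and the difference was -1.99. The site at -204 bp from the start of the RNA helicase gene Ddx24 differed by -1.85.

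**Figure D5:**
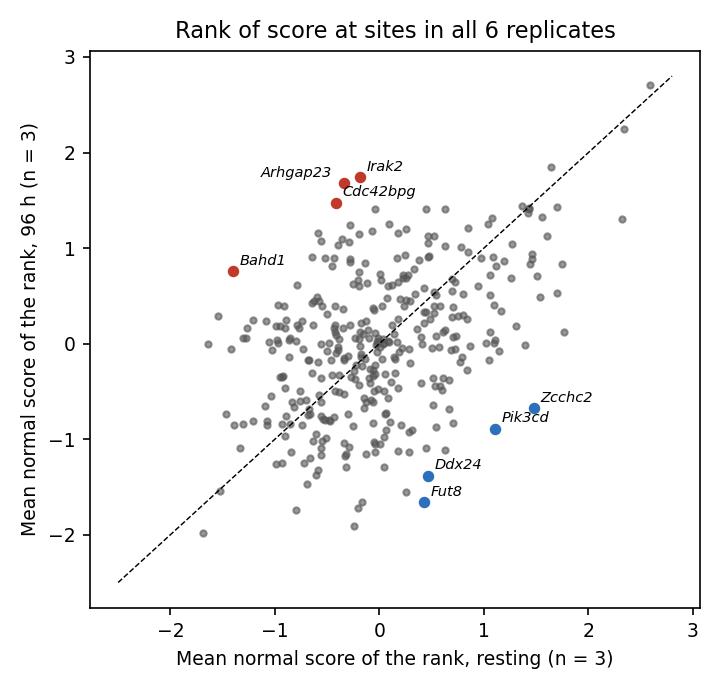
Mean normal score of the rank in resting cells (horizontal axis, 3 replicates) and at 96 h (vertical axis, 3 replicates) at the 356 sites with a peak in all 6 replicates, where higher values mean higher scores and the dashed line marks equality. The 4 largest differences in each direction are named, in red where higher at 96 h and in blue where lower, and none of the 356 passed an adjusted p of 0.05 in limma.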

How the data were processed

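RAD21 ChIP-seq was measured in 9 replicates, and 9 input libraries entered only through peak calling. Per the study's methods, the authors mapped reads to mm9 with Bowtie 2, randomly reduced all mapped sets to the same number of unique positions, and used MACS 2 with the input as control at a false discovery rate of 0.05, per replicate and on merged reads. The deposited lists hold a start, an end and a score of MACS 2, the kind of which is not given in the sources used here. Here the score only ranked peaks of 1 list or set a minimum. The number of reads per peak is not known.

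Sites were handled with Python 3.11.15, numpy 2.4.6 and scipy 1.17.1, plots with matplotlib 3.10.9. The nearest gene is the protein-coding gene of GENCODE M1 on NCBIM37, the same assembly as mm9, whose transcript start was nearest to the site centre, and features were assigned by the centre. The motif of 20 bases was learned from 187 sites on odd-numbered chromosomes, from the word GCCCTCTA, on both strands within 100 bp of the centre. The minimum is the score passed by 5% of windows 1000 bp away. Ranks were tested with limma 3.58.1 in R 4.3.3 with Benjamini-Hochberg adjustment over the 356 sites. The test and the site merging were tested on simulated data. In the simulation of the rank test, replicates were more alike than in these data. It therefore does not show which changes could be found here. Same-numbered replicates did not deviate together (correlations of -0.0260, -0.0320 and -0.0337), so no block was used.

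Sites named were the 12 retained gained and lost sites with the highest median percentiles, sites of all 3 resting replicates, the 10 highest of each class, the 4 largest rank differences in each direction, sites nearest to genes of the 12 lists and genes nearest to at least 3 gained sites. Members and lists were chosen with earlier results of these data known. Genes nearest to both classes were added. Alternatives were other list lengths, score minima, overlaps, replicate demands, promoter lengths and motif minima, and leaving out each replicate.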

Additional observations from a re-analysis of the deposited data

How the results depend on the processing

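Gained sites numbered 58 with lists of equal length, 215 above a score minimum, 2150 when 2 of 3 replicates were asked and 612 to 1760 when a replicate was left out. Lost sites numbered 228 at equal length, 9 when all 3 replicates were asked, 35 without sites in the merged list of 96 h and 12 to 326 when a replicate was left out. At equal length with the same demand on both groups, chosen after seeing the data, the counts were 226 gained and 228 lost (2 of 3) or 58 and 46 (3 of 3). Leaving out a replicate at equal length, with both remaining replicates asked of its group and 2 of 3 of the other, gave 106 to 283 gained and 97 to 286 lost sites, with the low counts in the group that lost the replicate. Overlap of 50% of both peaks gave 595 and 93 sites, and merging within 500 bp 602 and 93. With whole lists, gained sites outnumbered lost ones in each of these alternatives.

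Promoter shares were 2.66% of gained and 7.69% of lost sites with promoters of 1 kb, and 12.1% of gained sites at equal length. Motif shares were 73.2% and 44.1% with a stricter minimum of 16.05 log2 odds, and 91.3% and 93.3% at equal length. Shares with a peak at 48 h were 67.2% and 62.7% at sites gained and lost at equal length, with the 48 h lists left whole. Per replicate, differences ranged from -2.73 to -2.39 percentage points for promoters and from 2.56 to 4.21 for the motif when a replicate was left out.

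Of the sites in all 6 replicates, 0 to 2 were higher and 0 to 1 lower in limma when a replicate was left out. Without resting replicate 2, Syne1 and Cdc42bpg were higher and Pik3cd lower, each at an adjusted p of 0.0449 (limma). Among sites in at least 2 replicates of each group, 1 was higher, near the inhibitory receptor gene Pdcd1 (3.29, adjusted p = 0.00665 in limma), and 1 lower, near the crystallin gene Cryaa (-2.90, adjusted p = 0.0377 in limma). Both lacked a peak in at least 1 replicate, and the fit left such missing values out. Within each of these settings the called sites had the same standard error (0.708 and 0.719), so it did not reflect their own spread. With the replicate block, 0 and 0 sites were called, and the promoter difference stayed at -2.60 percentage points (exact sign-change p = 0.25, its smallest value). The cause of these changes was not tested. Read depth per site is not known, so a site without a peak may still lie just below the calling threshold.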

Other observations

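On the X chromosome 173 sites were found. Of these, 4 (2.31%) were gained, 1 (0.578%) was lost and 0 had a peak in all 6 replicates. Over all chromosomes these shares were 5.85%, 0.885% and 3.46%. On chromosome 17, 0 of 461 sites were lost, beside 0.885% over all chromosomes. These are the lowest gained and the lowest lost share of 21 chromosomes, so they are extremes picked from many. In lost sites with a match and no peak in the merged list of 96 h, the motif carried CG at positions 5 and 6 in 3 of 21 cases (14.3%, 3.05% to 36.3%), beside 19 of 42 (45.2%, 29.8% to 61.3%) in those with such a peak, with overlapping intervals.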
